A study of Glycine soja and Glycine max with 13 samples.

Results

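The genes described here encode abundant minor proteins of the soybean seed: the Kunitz trypsin inhibitors KTI1 (Glyma.01G095000) and KTI3 (Glyma.08G341500), the seed lectin Le1 (Glyma.02G012600) and the thiol protease-like protein P34 (Glyma.08G116300). They were taken by identifier, 4 genes of 43517 in the table of counts, and all 4 had enough counts to be tested. Their onset was read against Glyma.03G163500, a glycinin gene, called glycinin below. RNA came from seeds of 6 cultivated lines (Glycine max: df12, df14, df17, df3, df36 and df43) and 7 wild lines (Glycine soja: ys1, ys16, ys17, ys23, ys26, ys29 and ys34), all from field-grown plants at 13 days after flowering, with no treatment named. Each line gave 1 library, so the spread within a group is the spread between lines, and the labels name no number of plants or seeds behind a library.

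Soybean embryos fill protein storage vacuoles with glycinin and β-conglycinin, and beside these globulins they lay down smaller amounts of protective proteins. Kunitz inhibitors block trypsin-like digestive proteases and lower the feed value of raw soybean. The lectin binds galactose-type sugars on glycoproteins, and P34, also known as Gly m Bd 30K, is a member of the papain family and a major soybean allergen. The genes for such proteins are off in young seeds and are switched on as the embryo passes from cell division to maturation, under regulators of the LEC1, ABI3 and FUS3 kind.

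By the numbering of soybean identifiers KTI1 lies on chromosome 1, Le1 on chromosome 2 and both KTI3 and P34 on chromosome 8. Exact positions and sequences were not used here, because 0 of the identifiers matched the 59365 rows of the RefSeq gene table for Glycine soja (assembly ASM419377v2). The gene names follow the literature and were not checked against an annotation. Totals per line lay between 12.7 M and 26.0 M counts (M, mega). A count of 0 is compatible with up to 3 counts, equal to 0.111 CPM in ys16 and 0.242 CPM in df3, where CPM is counts per 1 M after TMM scaling. Lengths were not known, so CPM levels are compared between lines for 1 gene and never between genes. The feature with most counts took 6.64% of them in df36 and 18.3% in ys34, the extremes over the 13 lines.

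Glycinin was used as the scale of storage protein expression in a line. With 1 library per line at 1 age, progress of the seed cannot be told apart from a line difference in this gene. It ranged in cultivated lines from 0.929 CPM (18 counts) in df14 through a median of 334 CPM to 13960 CPM in df12, and in wild lines from 5.25 CPM in ys16 through a median of 1399 CPM to 11299 CPM in ys1. The groups overlapped over nearly the whole range. Rising from the lowest level, the order was df14, ys16, ys29, ys34, df36, df3, df43, df17, ys17, ys26, ys23, ys1 and df12. The largest step between neighbours lay between df36 (13.3 CPM) and df3 (147 CPM) and made up 25.2% of the log2 range, under the third set as the sign of separate clusters.

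KTI3 was present in quantity in every line, also where glycinin was near its floor. In cultivated lines it ran from 205 CPM in df14 through a median of 1275 CPM to 7210 CPM in df12. In wild lines it ran from 61.8 CPM in ys34 through a median of 1692 CPM to 5162 CPM in ys23. The lowest line still held 911 counts, so that the 117-fold span over all 13 lines did not rest on low counts. Lines df14, ys16, ys29 and ys34 were low in both groups and df12, ys23 and ys1 high, and the groups overlapped.

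KTI1, the other Kunitz inhibitor gene, covered a far wider span and was close to the detection limit in some lines. It ran from 1.19 CPM (23 counts, df14) through a median of 20.2 CPM to 425 CPM (df12) in cultivated lines. In wild lines it ran from 0.296 CPM (8 counts, ys16) through a median of 26.2 CPM to 868 CPM (ys23). Between the lowest and the highest line lay a 2937-fold difference, against the 117-fold of KTI3, and the low end rested on 7 counts in ys34 and 8 in ys16. The groups overlapped.

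Le1 showed a gap among the lines of low glycinin. Cultivated lines ran from 31.4 CPM (609 counts, df14) through a median of 314 CPM to 3239 CPM in df12. Wild lines ran from 2.03 CPM (55 counts, ys16) through a median of 163 CPM to 2410 CPM in ys1. Wild ys16, ys34 and ys29 stood at 2.03, 2.98 and 3.88 CPM, below every cultivated line, while the other 4 wild lines lay between 163 and 2410 CPM, inside the cultivated range.

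P34 had the widest span of the 4 genes among cultivated lines. Cultivated lines ran from 0.413 CPM (8 counts, df14) through a median of 75.3 CPM to 3191 CPM in df12, and wild lines from 0.998 CPM (27 counts, ys16) through a median of 113 CPM to 967 CPM in ys1. The 7731-fold span of P34 compares with 15032-fold for glycinin, both between df14 and df12, and rested on df12. Without that line P34 spanned 2342-fold, below the 2937-fold of KTI1, and glycinin 12167-fold. Over the wild lines alone the span was 969-fold for P34, 1186-fold for Le1, 2937-fold for KTI1 and 2153-fold for glycinin. The cultivated lines held both the lowest and the highest level, with all wild lines between them.

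**Figure D1:**
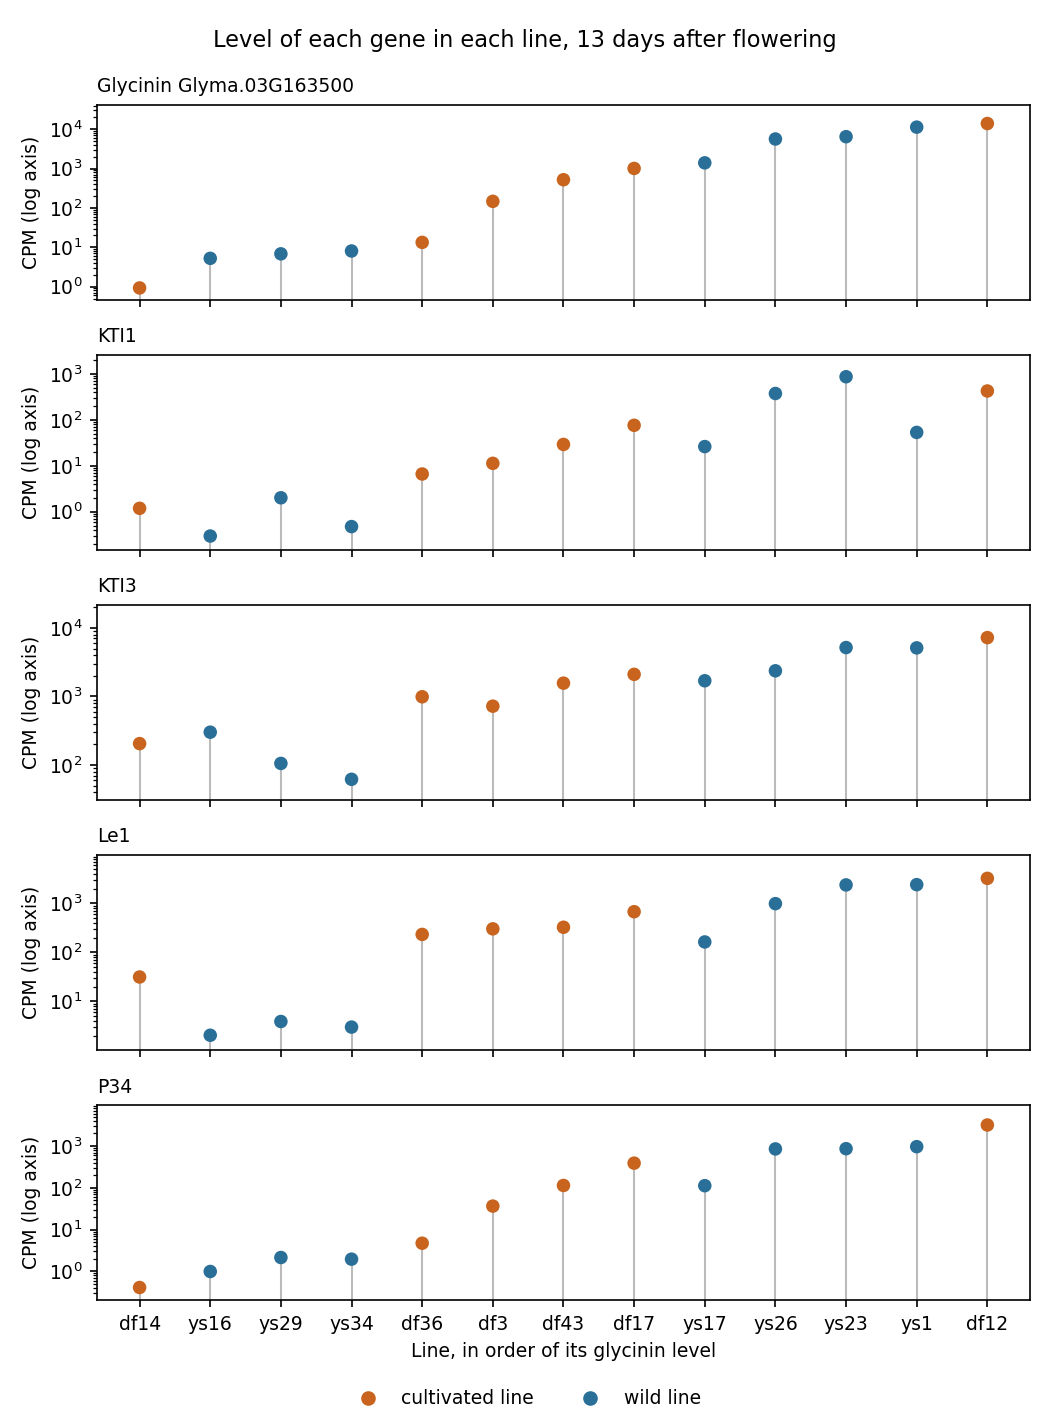
Level of glycinin and of the 4 genes in each of 13 lines, in CPM on log axes that differ between panels, with lines ordered by glycinin and coloured by group. Every gene is higher in the 3 lines at the right than in the 4 at the left, KTI3 from a base of 61.8 CPM or more, and KTI1 drops to 53.3 CPM in ys1 between higher neighbours.

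Set against its own highest line, each gene could be compared with the others without its length. KTI3 held at least 1% of its highest level in 12 of 13 lines, Le1 in 9, and KTI1, P34 and glycinin in 8 each. A level of 0.1% was reached by KTI3 in all 13 lines, by KTI1 and Le1 in 11, by P34 in 9 and by glycinin in 8. At 10% the order was another: KTI3 reached it in 8 lines, Le1 in 6, P34 and glycinin in 5 and KTI1 in 3. In df36, where glycinin was at 0.0956% of its level in df12, KTI3 was at 13.7% and Le1 at 7.18% of their highest lines, while KTI1 was at 0.763% and P34 at 0.148%. Wild ys16, ys29 and ys34, with glycinin at 0.0376% to 0.0578%, had KTI3 at 0.857% to 4.17%. Le1 was only at 0.0627% to 0.12% in these wild lines. By these shares, chosen as a measure after the values were seen, KTI3 and Le1 passed in more lines than glycinin at all 3 thresholds. KTI1 and P34 did so only at the lowest. The place of P34 hung on df12, its highest line by 3.3-fold over ys1. Without df12, P34 stood at 0.49% in df36 against 0.118% for glycinin, and it reached 0.1% in 11 of the 12 lines left against 8 for glycinin.

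The step from df36 to df3, both cultivated, showed the same order between single libraries. It uses the df36 values again and is no separate support for that order. Glycinin was 11-fold higher in df3 and P34 7.73-fold, whereas KTI1 was 1.71-fold and Le1 1.3-fold higher. KTI3 was 1.37-fold lower in df3. With 1 library per line this step has no replicate check.

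**Figure D2:**
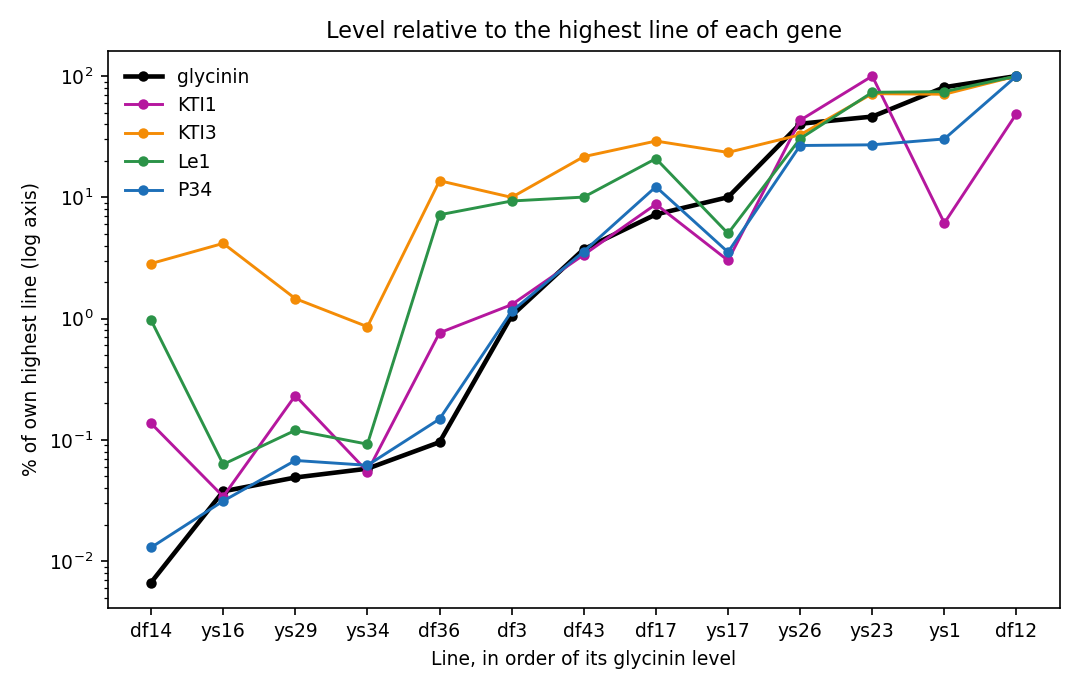
Level of each gene as a percentage of its own highest line (log axis) over 13 lines in order of glycinin. In df36 KTI3 stands at 13.7% and Le1 at 7.18% while P34 (0.148%) and glycinin (0.0956%) are near their base. In wild ys16, ys29 and ys34 Le1 is near its base too, at 0.0627% to 0.12%.

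All 4 genes rose with glycinin over the lines. The slope, the log2 change of a gene per doubling of glycinin with the group in the model, passed the edgeR quasi-likelihood test for each of them after Benjamini-Hochberg adjustment over all genes. Among 31419 genes tested, 4.57% were called, 3.09% with a positive slope and 1.48% with a negative one, and the median slope was -0.00028. That seed protein genes move together along these lines was known from earlier results on the same counts, and the count of 4 is no independent evidence of it. Values per gene, and how they differ, follow.

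P34 had a slope of 0.91 (SE 0.034, edgeR adjusted p = 3.06e-09), the smallest p of all 31419 genes. It nearly kept pace with glycinin, which by construction has a slope of 1. KTI1 had a slope of 0.75 (SE 0.094, edgeR adjusted p = 0.000453) and Le1 one of 0.69 (SE 0.097, edgeR adjusted p = 0.0011). KTI3 had the shallowest slope, 0.40 (SE 0.049, edgeR adjusted p = 0.000425). Glycinin and the 4 genes share the library and its scaling in each point, and with library sizes taken without the 4 genes and the globulins the slopes were the same to 2 decimals. The slope on glycinin and the progress of the embryo cannot be told apart in seeds sampled at 1 age.

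Differences between the slopes were tested by permuting lines, with the 6 pairs compared after the values were seen. These were plain least-squares slopes over cultivated and wild lines together, with no group term, unlike the edgeR slopes. P34 was steeper than KTI3 by 0.48 (slopes 0.89 and 0.41, SE of the difference 0.060), with a permutation p of 1e-05, the smallest that 100000 permutations can give, and 6e-05 adjusted over the 6 pairs. KTI1 and KTI3, the pair of Kunitz inhibitor genes, differed by 0.28 (SE 0.084, permutation p = 0.00574, 0.014 over the pairs). Le1 was steeper than KTI3 by 0.26 (SE 0.084, permutation p = 0.007, 0.014 over the pairs), and P34 steeper than KTI1 by 0.19 (SE 0.072, permutation p = 0.0211, 0.0316 over the pairs). P34 against Le1 missed the threshold at a difference of 0.22 (SE 0.101, permutation p = 0.0522, 0.0626 over the pairs). For KTI1 against Le1 the difference was 0.024 (SE 0.092, permutation p = 0.798), too imprecise to show that they rise alike. Within cultivated lines the slopes were 0.59 for KTI1, 0.33 for KTI3, 0.43 for Le1 and 0.93 for P34. Within wild lines they were 0.79, 0.49, 0.89 and 0.88 in the same order. The wild slopes rest on the wide step in glycinin between ys34 and ys17, with no wild line inside it. KTI3 was the shallowest in each group. Le1 lay below KTI1 and P34 in cultivated lines, but not in wild lines. Pair differences within a group were not tested.

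**Figure D3:**
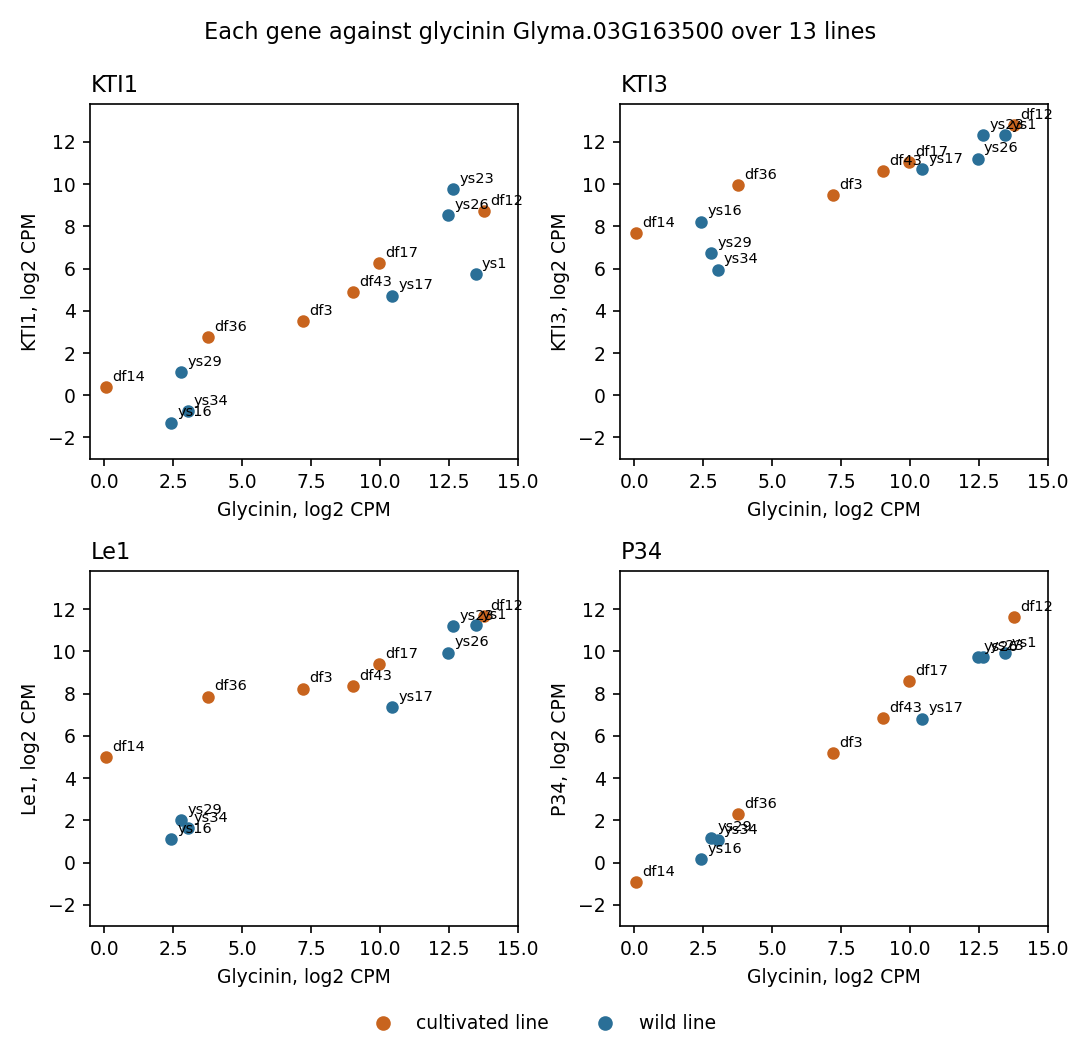
Log2 CPM of each gene against log2 CPM of glycinin, 1 point per line, coloured by group, with the same axes in all panels. P34 follows glycinin closely, KTI3 starts high and rises least, and for Le1 the wild lines ys16, ys29 and ys34 lie under cultivated df14 and df36.

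Over all lines together P34 was also nearest to glycinin in order, while KTI3, with the shallowest slope, did not stand behind KTI1 and Le1. Within each group, however, KTI3 matched the fewest pairs. Of the 78 pairs of lines, P34 ordered 75 as glycinin did, KTI3 and Le1 70 each, and KTI1 69. Within the cultivated lines KTI1, Le1 and P34 ordered all 15 pairs as glycinin did and KTI3 14. Within the wild lines P34 and Le1 matched 20 of 21 pairs, KTI1 18 and KTI3 17.

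Wild ys1 stood apart for KTI1. It held 53.3 CPM of KTI1 (1002 counts), 16.3-fold less than ys23 (868 CPM) and 7.98-fold less than df12 (425 CPM), its neighbours in glycinin. The other genes did not drop there. KTI3 was at 5106 CPM in ys1 and 5162 CPM in ys23, Le1 at 2410 and 2380 CPM, and P34 at 967 and 865 CPM. KTI1 had a fitted slope of 0.69 to 0.79 whichever line was left out.

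No difference between cultivated and wild lines was called for any of the 4 genes when the group was the only term in edgeR, with adjustment over all genes. Of the 31420 genes tested, 0.0446% were called. An unadjusted edgeR p under 0.05 was found for 5927 of the 31420 genes and for 0 of the 4. With 4 genes, that 0 cannot be told apart from the share over all genes. The log2 fold change, cultivated over wild, was -1.05 for KTI1 (SE 1.53, edgeR adjusted p = 0.744), at 91.6 ± 166 CPM (SD, n = 6) against 189 ± 328 CPM (SD, n = 7). KTI3 averaged 2131 ± 2574 CPM in the cultivated group and 2113 ± 2237 CPM in the wild group, with a log2 fold change of 0.012 (SE 0.946, edgeR adjusted p = 0.997). Le1 averaged 801 ± 1213 and 850 ± 1112 CPM, a log2 fold change of -0.085 (SE 1.37, edgeR adjusted p = 0.981). P34 averaged 623 ± 1267 and 400 ± 466 CPM, a log2 fold change of 0.64 (SE 1.62, edgeR adjusted p = 0.861). The standard errors were close to 1 or above on the log2 scale, so large differences in either direction could not have been seen. Without df12, the line with the highest KTI3, Le1 and P34, the log2 fold changes were -2.93 for KTI1, -0.92 for KTI3, -1.44 for Le1 and -1.88 for P34, none of them called.

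With glycinin in the model the fitted values of all 4 genes were higher in cultivated lines, but none passed edgeR after adjustment, where 0.293% of genes were called in either direction. Le1 had a log2 fold change of 2.81 at equal glycinin (SE 0.891, unadjusted p = 0.00682, edgeR adjusted p = 0.132), and P34 one of 0.90 (SE 0.244, unadjusted p = 0.00225, edgeR adjusted p = 0.103). Such unadjusted values were common, as 6502 of the 31419 genes tested had an unadjusted edgeR p under 0.05. Ranked by p over all genes, P34 was at place 680 and Le1 at place 1624. For KTI3 it was 0.88 (SE 0.428, edgeR adjusted p = 0.256) and for KTI1 0.39 (SE 0.755, edgeR adjusted p = 0.793). With 1 line left out the KTI1 value ran from 0.074 (without ys16) to 0.98 (without ys23), that of KTI3 from 0.60 (without df36) to 1.21 (without ys16), that of Le1 from 2.21 (without ys16) to 3.52 (without df12) and that of P34 from 0.74 to 1.01, none of them called. DESeq2 gave adjusted p of 0.00578 for Le1 and 0.0103 for P34, with 5.65% of all genes called, and limma voom with sample quality weights gave 0.0629 and 0.0461, with 1.05% called. When both ys29 and ys34 were left out, a choice added later, the Le1 value was 1.5 (edgeR adjusted p = 0.535). Taking a mean over the listed globulin genes in place of glycinin brought the P34 value to 0.27 (edgeR adjusted p = 0.803) and that of KTI1 to -0.38 (edgeR adjusted p = 0.829). The seed coat marker SWEET10a had, at equal glycinin, a log2 fold change of 1.85 (unadjusted p = 0.00104, edgeR adjusted p = 0.0908).

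**Figure D4:**
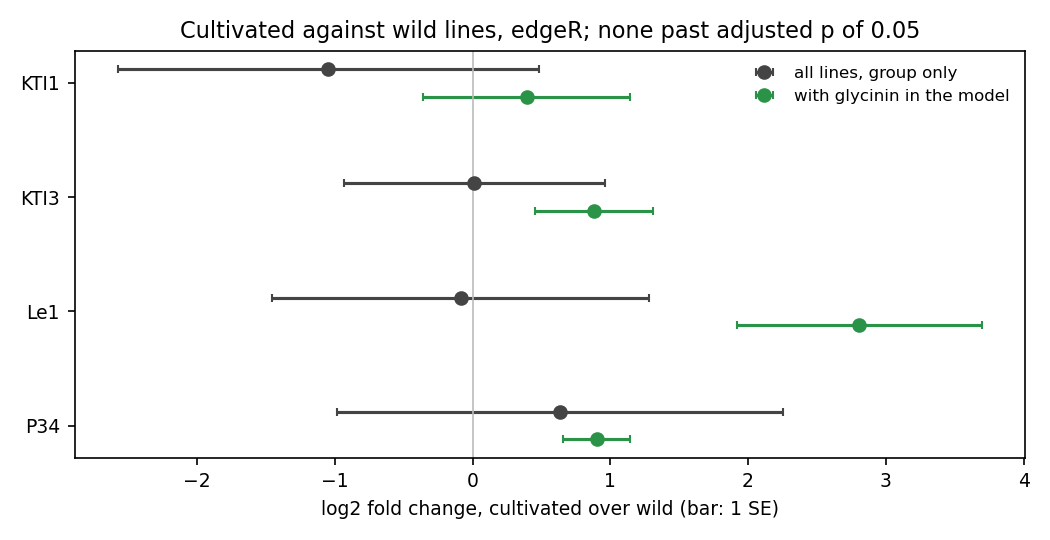
Log2 fold change of each gene, cultivated over wild, with the group alone (grey) and with glycinin in the model (green), bars showing 1 SE. None passes an adjusted p of 0.05 by edgeR; the Le1 estimate moves from -0.085 to 2.81.

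The slope of Le1 on glycinin was shallower in cultivated than in wild lines. Least-squares slopes were 0.43 over the 6 cultivated and 0.89 over the 7 wild lines, and the fitted difference was -0.49 (SE 0.076). The wild slope, and with it the difference, rests on the step in glycinin between ys16, ys29 and ys34 and the other wild lines. Without ys29 and ys34, ys16 alone holds the low end of the wild lines. Its unadjusted p of 1.87e-05 was the smallest of 31419 genes, yet the edgeR adjusted p was 0.529, and edgeR called 0 genes in all, with 1040 at an unadjusted p under 0.05. DESeq2 gave an adjusted p of 5.58e-07 (0.0191% of genes called, 6 in number) and limma voom one of 0.0297 (0.00318% called, which was Le1 alone). The call therefore turned on the tool, while the estimate stayed between -0.55 and -0.44 whichever line was left out and was -0.52 when both ys29 and ys34 were left out.

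Between single lines of near glycinin level, picked after the values were seen, Le1 stood apart from the other genes at low glycinin. At middle glycinin it lay near P34 and KTI1. Wild ys16, ys29 and ys34 held 5.25 to 8.07 CPM of glycinin and 2.03 to 3.88 CPM of Le1. Cultivated df14 held less glycinin, 0.929 CPM, and 8.10-fold more Le1 than ys29. It also held 1.95-fold the KTI3 of ys29, but 0.59-fold the KTI1 and 0.19-fold the P34. Against ys16, nearer in glycinin, df14 held 15.5-fold the Le1 and 0.41-fold the P34. KTI3 and KTI1 went the other way there, at 0.68-fold and 4.01-fold (on 8 counts of KTI1 in ys16). Cultivated df36, with 1.65-fold the glycinin of ys34, held 77.9-fold its Le1, against 16-fold for KTI3, 14-fold for KTI1 (on 7 counts in ys34) and 2.41-fold for P34. Against ys29, at 1.96-fold its glycinin, df36 held 59.9-fold the Le1, 9.38-fold the KTI3, 3.3-fold the KTI1 and 2.2-fold the P34. At middle glycinin, df17 had 0.722-fold the glycinin of ys17 and 4.14-fold its Le1, beside 3.46-fold for P34, 2.91-fold for KTI1 and 1.24-fold for KTI3. At high glycinin Le1 in ys1 and ys23 was within 1.36-fold of df12. For P34, KTI3 and KTI1 the difference in slope was 0.061 (SE 0.056), -0.13 (SE 0.083) and -0.28 (SE 0.139), with an edgeR adjusted p of 0.996 each.

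Other stored proteins rose with glycinin as well, over identifiers taken from the literature. Of the other glycinin genes, 3 of 3 tested had a positive slope called by edgeR (median 0.99), from 1.08 for Glyma.10G037100 to 0.37 for Glyma.19G164800. Of 5 β-conglycinin genes, 4 were called positive (median 0.55), led by Glyma.10G246300 at 0.77, and Glyma.20G148200 was not called, at 0.29. Among those called, Glyma.20G148400 and Glyma.20G148300 had nearly the same counts in every line (3962 and 3978 in ys16). Both had a slope of 0.55, so they may be 1 signal counted under 2 identifiers. Of 7 further seed protein genes 7 were called positive (median 0.71). They held 3 lipoxygenases, enzymes behind the beany flavour of soybean, with LOX2 highest at 0.78, and the lowest was β-amylase, a starch-degrading enzyme, at 0.23. The slopes of all 4 genes lie inside the range of these lists. That of KTI3 (0.40) is in the lower part, beside β-conglycinin Glyma.20G146200 at 0.40 and glycinin Glyma.19G164800 at 0.37, and an embryo urease gene is lower at 0.31.

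Regulators of maturation had small slopes on glycinin, though their levels differed between lines. The sum of the 6 ranged over 3.03-fold, from 211 to 640 CPM, and single genes over as much as 5.94-fold (LEC1b, 34.8 to 207 CPM). Both ABI3 genes, for factors that carry the abscisic acid signal in maturing seeds, were called positive at 0.12 (ABI3a, edgeR adjusted p = 0.0187) and 0.11 (ABI3b, edgeR adjusted p = 0.0248). The other 4, for LEC1 and FUS3, were not called, with slopes of -0.0017 to 0.056, and the median of the 6 was 0.042. In df14, with 0.929 CPM of glycinin, LEC1a stood at 74.1 CPM and LEC1b at 118 CPM. None of the 5 reference genes used for RT-qPCR in soybean was called (slopes of 0.0013 to 0.041), and their summed level stayed between 946 and 1880 CPM.

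**Figure D5:**
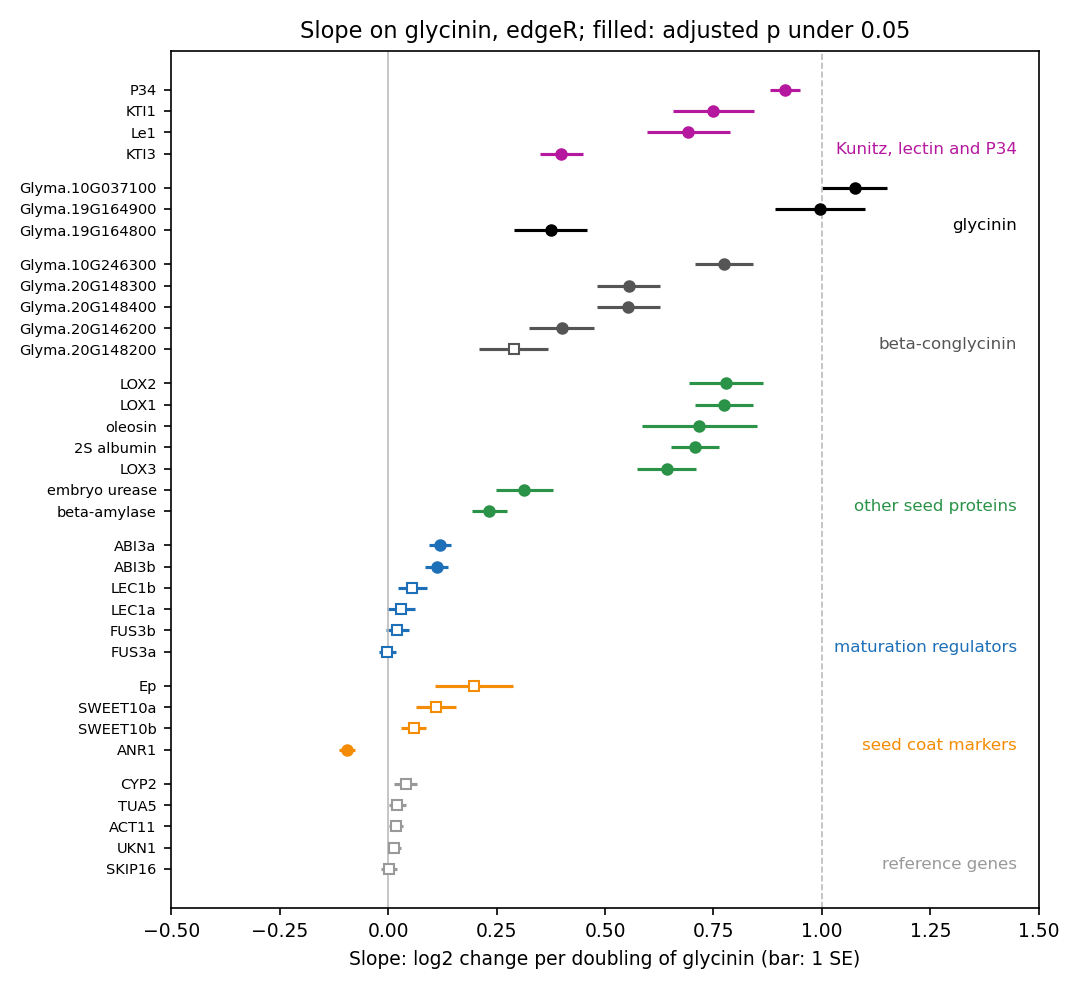
Slope on glycinin (log2 change per doubling of glycinin, bars 1 SE) for the 4 genes and the genes of 6 lists, filled where the edgeR adjusted p was under 0.05. Seed proteins spread between 0.23 and 1.08, and regulators, seed coat markers and reference genes lie between -0.094 and 0.20.

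Whole seeds hold seed coat beside embryo, and in bulk RNA fewer embryo cells and less RNA per cell cannot be told apart. Of 4 seed coat markers, 0 were called with a positive slope and 1, ANR1 of the proanthocyanidin pathway, with a negative one (-0.094, edgeR adjusted p = 0.0102). SWEET10a had a slope of 0.11, SWEET10b, which like it loads sugar towards the embryo, 0.059 and the seed coat peroxidase gene Ep 0.20. Together the 4 markers summed to 897 to 1992 CPM over cultivated and 785 to 1388 CPM over wild lines, and none of them was at 0 in any line. SWEET10a averaged 128 ± 53.8 CPM (SD, n = 6) in cultivated and 45.9 ± 35.9 CPM (SD, n = 7) in wild lines. In ys16, ys29 and ys34, the wild lines low in Le1, it was at 10.8 to 28.7 CPM, against 93.8 CPM in df14 and 194 CPM in df36. SWEET10b was also lower there, at 216 to 305 CPM against 522 and 1296.5 CPM. ANR1 went the other way, at 549 to 562 CPM against 507 and 402 CPM. Ep held 28.4 to 171 CPM there, 1.65 CPM in df14 and 99.3 CPM in df36. Wild ys17, with 163 CPM of Le1, held 12.8 CPM of SWEET10a. At equal glycinin the log2 fold change was 1.10 for SWEET10b (edgeR adjusted p = 0.0929), -0.27 for ANR1 and -1.17 for Ep, none of them called. The part of seed coat and embryo shares in the slopes and group values of the 4 genes was not tested.

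The genes most like each of the 4 were sought among 15688 other genes with a mean of at least 10 CPM, by the number of line pairs ordered alike and, among ties, the smaller SD of the log2 difference. For P34 this was glycinin itself, at 75 of 78 pairs. For KTI3 it was Glyma.20G219900, which matched all 78 pairs. For Le1 and KTI1 the leading 3 were the same genes and tied, at 74 pairs for Le1 and 73 for KTI1, with Glyma.16G210000 first for Le1 and Glyma.09G160500 first for KTI1 by the SD alone. Glycinin ranked 120 in likeness to KTI3, 50 to Le1 and 41 to KTI1, and KTI1 ranked only 164 for KTI3. No names come with these identifiers, and their products are left unnamed.

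Most identifiers numbered next to the 4 genes were not called. Within 10 steps on either side, a positive slope was called by edgeR for 2 of 15 tested neighbours of KTI3, 2 of 13 of Le1, 1 of 8 of KTI1 and 1 of 14 of P34. That made 6 of 50, or 12%, against 3.09% of all genes, a difference that was not tested. A negative slope was called for 1 neighbour, Glyma.02G013400 beside Le1 (-0.11, edgeR adjusted p = 0.03), named after its value was seen. No neighbour was called between the groups. The most abundant neighbour of KTI3, Glyma.08G341000, had a slope of 0.40 (SE 0.064, edgeR adjusted p = 0.00303), like that of KTI3, and ordered 74 of 78 pairs of lines as KTI3 did. It ran from 41.2 CPM in ys34 to 6240 CPM in ys23, and in ys23 it was higher than in df12 (3538 CPM), where KTI3 was highest. The sources do not say how reads of near-identical copies were counted, and the values of KTI3 and this neighbour may share reads. The most abundant neighbours of KTI1, Le1 and P34, Glyma.01G094200, Glyma.02G012400 and Glyma.08G115600, had slopes of 0.0052, -0.0076 and -0.016, none of them called.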

How the data were processed

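Strand-specific mRNA libraries from seeds of 13 lines were made with a TruSeq kit from DNase-treated RNA, per the labels' protocols. Trim Galore 0.3.3, TopHat2, SAMtools and edgeR are listed in the submitters' processing notes, with no order or role; no counting tool, genome build or strand setting is named there. The authors deposited read counts for each gene as whole numbers whose sums differ between lines, so they were taken as not normalized. Of 43517 rows, those kept by filterByExpr were fitted with edgeR 4.0.16 (R 4.3.3; TMM factors, quasi-likelihood F-test, Benjamini-Hochberg at 0.05): group alone; log2 CPM of glycinin (prior count 2) plus group; and their interaction. A standard error is the estimate divided by the square root of F. Glycinin was left out of the genes tested against itself. Lines are told apart by name alone, and p-values measure the spread between these lines.

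The 4 genes, the lists (33 identifiers, 31 in the table) and the tests were chosen with earlier results of these data known. The genes named are the 4, glycinin, the extremes of each list, the gene most like each of the 4 and the most abundant neighbour. ABI3, LEC1, urease and the remaining seed coat markers were named after their values were seen. Slope differences and likeness were computed with numpy 2.4.6, scipy 1.17.1 and pandas 2.3.3 under Python 3.11.15, and figures drawn with matplotlib 3.10.9. Alternatives were scaling by RLE or by upper quartiles, dropping the filter or tightening it (1 CPM in 6 lines, mean of 5 CPM), DESeq2 1.42.0, limma 3.58.1 voom with sample quality weights, library sizes without storage genes, a globulin score, no group term and leaving out each line. The edgeR slope and group fits were tried on simulated counts with the same dispersion for all genes, and the interaction was not checked there. Depth limits cover counting error only, as read pairs carry no molecular identifiers.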

Additional observations from a re-analysis of the deposited data

How the results depend on the processing

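No paired analysis was possible because each line is a sample of its own and the labels give no number shared between cultivated and wild lines. The slopes on glycinin passed by edgeR, DESeq2 or limma voom under every alternative run, also with 1 line left out, when they lay between 0.69 and 0.79 (KTI1), 0.37 and 0.44 (KTI3), 0.63 and 0.76 (Le1) and 0.91 and 0.93 (P34). With the globulin score as covariate they were 1.16, 0.64, 1.06 and 1.29, on the scale of that score. The group alone was never called for the 4 genes, and its sign was not stable. Over the lines left out, the log2 fold change ran from -2.93 (df12) to 0.27 (ys23) for KTI1, from -0.92 (df12) to 0.41 (ys23) for KTI3, from -1.44 (df12) to 0.44 (ys1) for Le1 and from -1.88 (df12) to 1.03 (ys1) for P34. Limma voom with sample quality weights gave 0.52 for KTI1 and 1.93 for Le1, and KTI3 was at -0.46 when both ys29 and ys34 were left out, an alternative added after seeing the data; the cause was not tested. At equal glycinin, KTI1 was at -0.38 with the globulin score, DESeq2 called Le1 (2.88) and P34 (0.93), and limma voom called P34 (1.05). The Le1 difference in slope was called by DESeq2 (-0.49) and limma voom (-0.45), and it was -0.65 with the globulin score (edgeR adjusted p = 0.989). The slope difference of KTI1 against Le1 ran from -0.026 to 0.087 over the lines left out. P34 passed 1000 CPM in 1 line, and in 2 on unscaled totals.

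Counts over all genes moved more. The group alone gave 14 calls (8 higher, 6 lower in cultivated lines), 23 with upper-quartile factors (17 higher), 25 with no filter, 1279 by DESeq2 and 9 to 32 with 1 line left out. Slopes on glycinin gave 1437 calls, 2748 by DESeq2, 4215 by limma voom, 549 to 1787 with 1 line left out and 330 without ys29 and ys34. The group at equal glycinin gave 92 calls, 1775 by DESeq2, 330 by limma voom, 10 to 119 with 1 line left out and 22 without ys29 and ys34. Depth limits KTI1 in ys16 and ys34 and P34 in df14, which rest on 8, 7 and 8 counts. None of 10 groups of lines held an outlying line by Dixon's limit.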
